A study of Mus musculus with 12 samples.

Results

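Calprotectin is the complex of the calcium-binding proteins S100A8 and S100A9, and Ager encodes RAGE, a cell-surface receptor for which both proteins are known ligands. These 3 genes, of 18194 named on the array, were chosen by symbol for their high signal in ESR1KO oviducts, so their genotype differences are the values on which they were selected and are given below as a description with no test.

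S100A8 and S100A9 are best known as abundant cytoplasmic proteins of neutrophils and monocytes, and stressed epithelia can also make them. Released calprotectin binds zinc, manganese and other metals, which limits bacterial growth, and it signals through TLR4 and RAGE on neighbouring cells. RAGE also binds advanced glycation end products and the nuclear protein HMGB1, feeds into NF-kB, and in adult mammals is most abundant in the alveolar type I cells of the lung.

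The 4 groups of immature C57BL/6 female mice each had 3 arrays of whole-oviduct RNA pooled from 3 to 4 mice, and the study's methods state that replicates used different mice. PMSG-treated ESR1KO and PMSG-treated WT mice received 5 IU of PMSG, a gonadotropin that drives follicles to grow and make estradiol, at 23 days of age and were collected 48 h later. ESR1KO and WT mice were untreated and collected at 23 days, so that PMSG and the additional 48 h of age cannot be told apart. ESR1KO mice were ESR1-/-, with or without ZP3Cre, and thus lacked ESR1 in the whole animal through an allele deleted by Cre in oocytes. The WT mice were sibling controls, ESR1flox/-, with or without ZP3Cre, and thus carried 1 floxed and 1 deleted copy.

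The values are log2 expression signals of Affymetrix Mouse Genome arrays, with array medians from 5.63 to 5.75. Signals under 4, which made up 41.5% to 42.3% of each array, are called near background here. The row names of the deposited table hold for the untreated ESR1KO columns, whereas a different order of rows runs through the other 9. S100a8, S100a9 and Ager were each found there as the only 1 of 45101 rows with the genotype difference with PMSG that the study lists for the gene, and the other listed differences, not used in that search, were then met to within 7.26e-06 on the log2 scale. For Ager, the untreated genotype difference also chose between its 2 probe sets. Other genes were matched on the genotype difference with PMSG and the PMSG difference in WT together. Their probe set in the untreated ESR1KO columns was picked by the untreated genotype difference. In this way 1825 named genes were located in all 12 arrays. These are genes that the study listed as changed in its overall model, and genes late in the alphabet are not among them, so that counts over located genes describe a selected set. All 12 oviduct epithelium markers were above 4 in untreated ESR1KO, among them the oviduct glycoprotein gene Ovgp1, the secretory cell factor Pax8 and the ciliated cell factor Foxj1. Esr1 itself had 10.11, 10.62 and 10.56 in PMSG-treated ESR1KO, against 12.62, 12.82 and 12.21 in PMSG-treated WT. In ESR1KO it had 10.42, 12.13 and 11.05, against 12.94, 12.92 and 13.05 in WT. Every ESR1KO array was below every WT array, and the untreated ESR1KO replicate 2 was the nearest to WT. Where the Esr1 probe set lies relative to the deleted sequence is not given in the sources used here.

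S100a8 and S100a9 lie close together in the S100 gene cluster of mouse chromosome 3, at chr3:90669071-90670034 and chr3:90692630-90695721 (GRCm38.p6), and Ager lies apart from them at chr17:34597460-34600937. None of these genes overlaps a neighbour in the RefSeq annotation. The promoters of S100a8 and S100a9 are shown because both transcripts moved together across arrays. Each is the RefSeq sequence (GRCm38.p6) from 250 bases before the annotated start to 50 after it, with matches to the C/EBP motif TTNNGNAA and to TATAAA in capitals.
S100a8 promoter, chr3:90668821-90669120, plus strand: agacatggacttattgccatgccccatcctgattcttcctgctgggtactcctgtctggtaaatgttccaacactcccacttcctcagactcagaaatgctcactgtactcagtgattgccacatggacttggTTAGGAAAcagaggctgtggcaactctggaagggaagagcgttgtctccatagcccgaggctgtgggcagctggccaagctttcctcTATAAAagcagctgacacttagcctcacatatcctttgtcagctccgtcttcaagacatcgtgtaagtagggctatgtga
S100a9 promoter, chr3:90695672-90695971, minus strand: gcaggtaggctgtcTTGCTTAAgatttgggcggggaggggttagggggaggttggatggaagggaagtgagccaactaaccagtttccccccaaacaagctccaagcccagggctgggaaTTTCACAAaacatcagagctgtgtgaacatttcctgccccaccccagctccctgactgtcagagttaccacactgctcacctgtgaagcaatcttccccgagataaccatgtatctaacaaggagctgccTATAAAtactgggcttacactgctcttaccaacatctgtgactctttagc
Both strands were searched with the C/EBP motif, TATAAA, the NF-kB motif GGGNNNTTCC, the AP-1 motif TGANTCA, the PU.1 motif AGAGGAA, the short estrogen response element AGGTCA and the full one, GGTCANNNTGACC. The S100a8 promoter held TTAGGAAA 117 bases before the start and TATAAA 30 bases before it, and 1 PU.1 match, which shared 1 base with the TATAAA. The S100a9 promoter held TTGCTTAA and TTTCACAA, at 236 and 130 bases before the start, and a TATAAA that began at the annotated start itself. Either form of the estrogen response element, the NF-kB motif and the AP-1 motif had no match in either window. The RefSeq window listed for Ager begins after the start of the gene given above and is not compared here. Of 32851 mouse promoters of the same length, 40.7% held the C/EBP motif, 13.6% TATAAA, 10.4% the PU.1 motif, 5.56% the NF-kB motif, 7.81% the AP-1 motif, 16.3% the short element and 0.0700% the full one. A match is a run of letters and not a measured site, and factor binding was not measured.

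With PMSG, the S100a8 and S100a9 transcripts were near background in WT and well above it in ESR1KO. S100a8 had log2 signals of 6.55, 8.57 and 9.17 in PMSG-treated ESR1KO, against 4.44, 3.82 and 2.90 in PMSG-treated WT. The lowest PMSG-treated ESR1KO array was 2.11 above the highest PMSG-treated WT array, and the means were 8.10 ± 1.37 and 3.72 ± 0.77 (SD, n = 3 each), a difference of 4.38 (SE 0.72) or 20.8-fold. S100a9 had 4.65, 7.90 and 8.21 in PMSG-treated ESR1KO, against 3.18, 2.36 and 2.74 in PMSG-treated WT. Here the groups were 1.46 apart at their nearest arrays, with means of 6.92 ± 1.98 and 2.76 ± 0.41 and a difference of 4.16 (SE 0.82) or 17.9-fold. For both subunits the PMSG-treated ESR1KO replicate 1 was by far the lowest of its group, and without it the differences were 5.15 for S100a8 and 5.30 for S100a9. In whole-oviduct RNA, more cells that make a transcript and more transcript per cell cannot be told apart.

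Ager, the receptor gene, had the same contrast with less scatter. Its signals were 6.26, 7.67 and 7.10 in PMSG-treated ESR1KO, against 2.04, 2.72 and 2.74 in PMSG-treated WT. The nearest arrays of the groups were 3.51 apart, the means were 7.01 ± 0.71 and 2.50 ± 0.40, and the difference was 4.51 (SE 0.36) or 22.8-fold. Because each WT mean was near background, where GC-RMA can compress differences, the array folds of all 3 genes are uncertain in size. For S100a8 with PMSG, the paper reports a similar fold by real-time RT-PCR on aliquots of the same RNA.

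**Figure D1:**
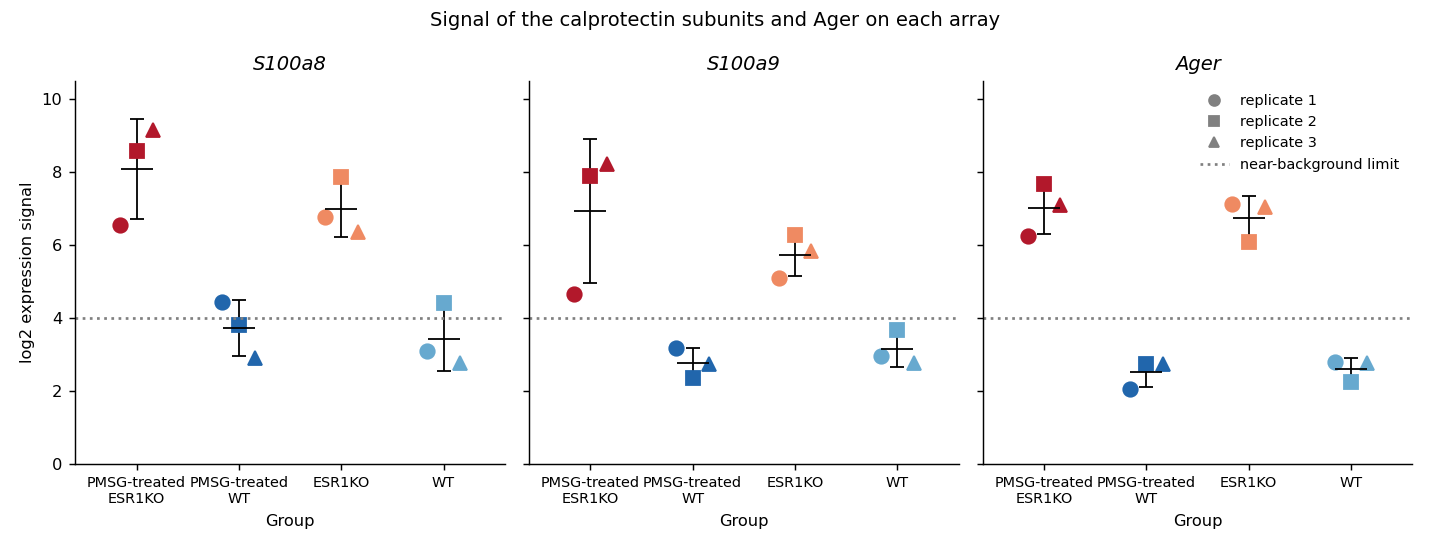
The log2 expression signal (vertical axis) of S100a8, S100a9 and Ager is plotted for each array in the 4 groups, with bars for the mean and SD of 3 arrays and a dotted line at the near-background limit of 4. All ESR1KO arrays lie above all WT arrays for each gene, and the widest scatter is that of S100a9 in PMSG-treated ESR1KO, between 4.65 and 8.21.

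Without PMSG the contrast was of the same kind but smaller for the calprotectin subunits. S100a8 had 6.76, 7.87 and 6.36 in ESR1KO, against 3.10, 4.42 and 2.75 in WT, a difference of 3.57 (SE 0.70) or 11.9-fold. S100a9 had 5.11, 6.26 and 5.83 in ESR1KO, against 2.96, 3.67 and 2.77 in WT, a difference of 2.60 (SE 0.76) or 6.06-fold. Ager had 7.13, 6.08 and 7.04 in ESR1KO, against 2.79, 2.24 and 2.76 in WT, a difference of 4.16 (SE 0.39) or 17.8-fold. The groups did not overlap for any of these genes, with gaps between the nearest arrays of 1.94, 1.43 and 3.29 for S100a8, S100a9 and Ager.

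The series as a whole gives the background for these contrasts. Rows were called at an adjusted p under 0.05 in limma and at least 2-fold. Between genotypes with PMSG, 2.76% of 45101 rows were called higher in ESR1KO and 1.72% lower, and every PMSG-treated ESR1KO array was above every PMSG-treated WT array in 11.5% of rows. Of the 1891 rows located in all 12 arrays, 28.1% were called higher and 20.0% lower in that comparison. In ESR1KO versus WT, 8.88% of located rows were called higher and 8.83% lower, and in 42.6% all ESR1KO arrays were above all WT arrays. Calls in comparisons that use untreated ESR1KO faced a stricter adjustment, described below. Calls and shares with and without PMSG are therefore not directly comparable. S100a8, S100a9 and Ager were all among the rows called higher with PMSG, and S100a8 and Ager were among those called higher without it. Since these contrasts served to choose the genes, nothing is read from those counts. Ordered by the difference with PMSG, Ager took place 21, S100a8 place 26 and S100a9 place 32 of the 45101 rows. Among the 1825 located genes alone, which leave out other rows of that order, the nearest were Serpina1b, Dlk1 and B3gnt5 above Ager (4.78, 4.73 and 4.73), Lemd1 and Lgi1 (4.50 and 4.43) between Ager and S100a8, Adamts16 and Il18r1 (4.31 and 4.28) between S100a8 and S100a9, and Atp6v1b1, Gldc and Upk3bl (4.15, 4.10 and 4.09) below S100a9.

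The PMSG contrasts were not used to choose the genes, although they share arrays with the genotype contrasts that were. In ESR1KO oviducts, PMSG-treated arrays averaged 8.10 ± 1.37 for S100a8, against 7.00 ± 0.78 in untreated arrays, a difference of 1.10 (95% interval -0.45 to 2.65). For S100a9 the means were 6.92 ± 1.98 and 5.73 ± 0.58, a difference of 1.19 (95% interval -0.50 to 2.87). For Ager they were 7.01 ± 0.71 and 6.75 ± 0.59, a difference of 0.26 (95% interval -0.59 to 1.11). None of these was called by limma, and the adjusted p was 1 for each. The arrays of both groups overlapped for every gene. PMSG-treated ESR1KO replicates 2 and 3 exceeded all untreated ESR1KO arrays for S100a8 and S100a9, whereas replicate 1 was below 2 of the 3 untreated arrays for S100a8 and below all of them for S100a9. Without replicate 1 the differences were 1.87 for S100a8 and 2.32 for S100a9, and neither was called (limma, adjusted p = 1 and 0.51). Only 0.106% of located rows were called in PMSG-treated ESR1KO versus ESR1KO.

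In WT oviducts, where the signals were near background in both groups, PMSG-treated arrays averaged 3.72 ± 0.77 for S100a8, against 3.42 ± 0.88 in untreated arrays (difference 0.30, 95% interval -1.33 to 1.92). S100a9 averaged 2.76 ± 0.41 and 3.13 ± 0.48 (difference -0.37, 95% interval -2.22 to 1.48). Ager averaged 2.50 ± 0.40 and 2.59 ± 0.31 (difference -0.09, 95% interval -0.91 to 0.73). None was called (limma, adjusted p = 0.9999 for each), the groups overlapped for each gene, and 0.251% of the 45101 rows were called in this comparison. Differences of about the size seen in ESR1KO oviducts thus lie within the interval of the WT arm for S100a8 and S100a9.

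The genotype difference was larger with PMSG than without it by 0.80 for S100a8 (95% interval -1.39 to 2.99), by 1.56 for S100a9 (95% interval -0.82 to 3.94) and by 0.35 for Ager (95% interval -0.85 to 1.56). None of these interaction terms was called, and 0.370% of located rows were. The order of levels was therefore PMSG-treated ESR1KO and ESR1KO, whose arrays overlapped, above PMSG-treated WT and WT, whose arrays also overlapped, for each of the 3 genes.

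**Figure D2:**
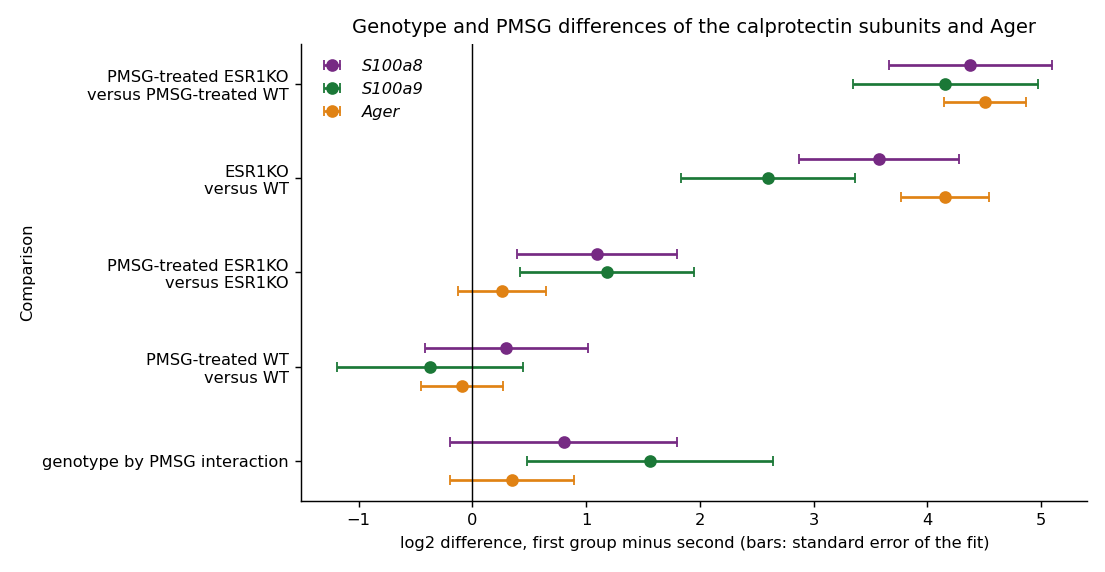
The log2 difference (horizontal axis) of S100a8, S100a9 and Ager is plotted for 5 comparisons, with bars for the standard error of the limma fit. The genotype differences lie between 2.60 and 4.51, the PMSG differences between -0.37 and 1.19.

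Among arrays of 1 group, the calprotectin subunits followed each other and Ager did not follow them. Over the 12 arrays S100a8 and S100a9 correlated at r = 0.960, which was the highest of the 1824 other located genes for either of them. After the mean of each group was taken away, their r was 0.831, which placed S100a9 at 6 for S100a8 and S100a8 at 4 for S100a9 among those genes, and both were on the same side of their group mean on 10 of 12 arrays. With Ager the 12-array values were 0.894 for S100a8 and 0.883 for S100a9, and the within-group values were -0.080 and 0.294. S100a8 and Ager were on the same side of their group means on 4 of 12 arrays, as were S100a9 and Ager. One array decided those within-group values. Without PMSG-treated ESR1KO replicate 1, which was the lowest of its group for all 3 genes and was left out after its values were seen, the within-group r over 11 arrays was 0.700 for S100a8 with S100a9, -0.873 for S100a8 with Ager and -0.854 for S100a9 with Ager. Untreated ESR1KO replicate 2, for example, was the highest of its group for S100a8 and S100a9 and the lowest for Ager, and it also had the highest Esr1 signal of the ESR1KO arrays. WT replicate 2 was likewise the highest of its group for both subunits and the lowest for Ager. These are descriptions of 12 arrays that share 4 group means, and the WT arrays have signals near background.

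**Figure D3:**
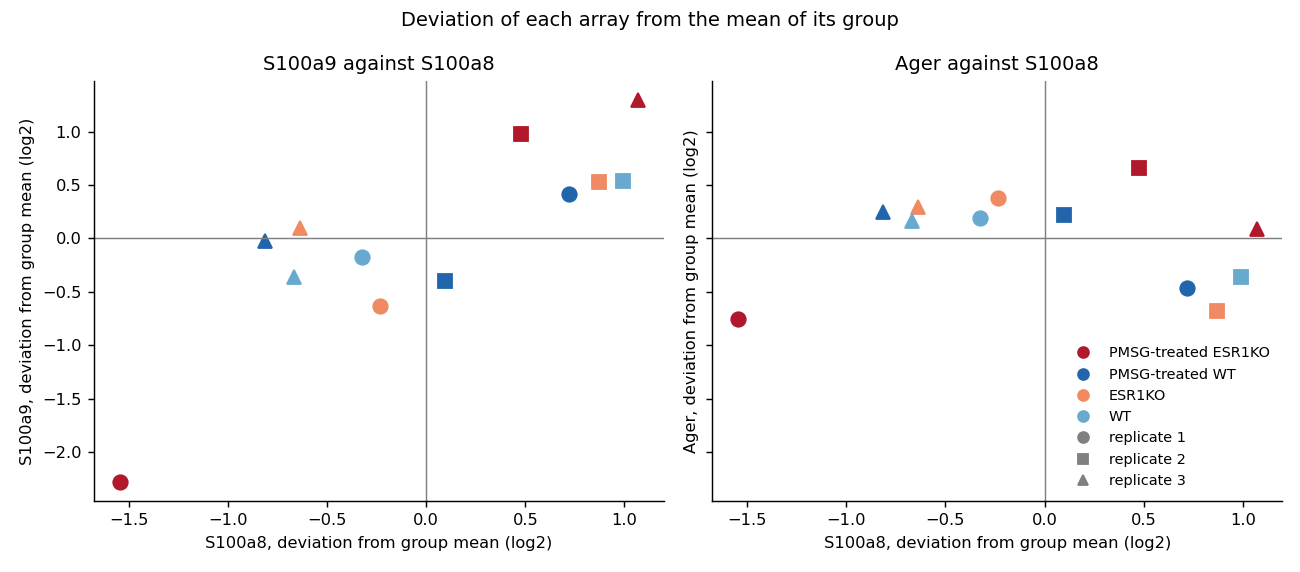
Each point is 1 array, placed by the deviation of its S100a8 signal from the mean of its group (horizontal axis, log2) and by that of S100a9 (left) or Ager (right) on the vertical axis. On the left, 10 of 12 arrays lie in the lower left or upper right, and on the right 4 of 12 do, with PMSG-treated ESR1KO replicate 1 at the far lower left of both.

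The genes whose signal followed each member most closely over the 12 arrays differed between the subunits and the receptor. After S100a9, those nearest to S100a8 were Ntrk2, which encodes a neurotrophin receptor (r = 0.951), the chemokine gene Cxcl12 (0.936), the monoamine oxidase gene Maob (0.936) and Sppl2a, which encodes an intramembrane protease (0.935). Those nearest to S100a9 after S100a8 were the adenylyl cyclase gene Adcy8 (0.948), the homeobox gene Lhx1 (0.942), Vstm5 (0.942) and Hpca, which encodes a neuronal calcium sensor (0.939). Ager was followed by Arhgap9 (0.985), the scavenger receptor genes Scara3 and Scara5 (0.984 each), the metalloproteinase gene Adamts16 (0.982) and the transcription factor gene Bach2 (0.982). For Ager, 622 of 1824 genes had an r above 0.8, against 366 for S100a8 and 355 for S100a9. A high r is thus common among located genes, which the study listed as changed in its overall model.

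The array holds a second probe set for Ager. In untreated ESR1KO, the only columns in which it could be named, it gave 3.16, 2.81 and 2.93, near background, against 7.13, 6.08 and 7.04 for the probe set described above. The probe sets of Ager thus disagreed on whether the transcript was above background, and the values above rest on 1 of them. S100a8 and S100a9 each have 1 probe set.

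Other genes of the family and pathway could be named on all rows of the untreated ESR1KO arrays only, where they were read as above or under 4. Of 13 other genes whose symbols begin with S100, 10 were above the limit, including S100a6, S100a10, S100a16 and S100a1, and 3 were near background, namely S100a5, S100a7l2 and S100a3. One of the 10, S100pbp, encodes a binding partner of an S100 protein and not a family member. S100a8 and S100a9 lie among other S100 genes on chromosome 3, and of their 9 named neighbours on the array, 4 were above the limit and 5 were near background. Of 14 other receptors for calprotectin or glycation end products, 11 were above the limit, among them Tlr4, its coreceptor Cd14 and its partner Ly96, and Cd33, Stab2 and Olr1 were near background. All 13 measured adaptor and signalling genes downstream of RAGE and TLR4 were above it, including Diaph1, which encodes the formin that binds the tail of RAGE. Of 19 inflammatory genes known to be induced by NF-kB, 13 were near background, including Tnf, Il1b and Il6, and Lcn2, Vcam1, Icam1, Ptgs2, Saa3 and Cxcl1 were above the limit.

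Pathway genes located in all 12 arrays were few, and the shares of all located rows called between genotypes stand beside them as 28.1% higher and 20.0% lower with PMSG, and 8.88% and 8.83% without it. Myd88, the adaptor of TLR4, had a difference of 1.05 with PMSG and was called, and 0.59 without PMSG, not called. Lgals3, which encodes the glycation receptor galectin-3, had differences of 1.09 and 0.56, and App, whose product is cut into a RAGE ligand, had 0.48 and 0.54, all not called. Mmp9, a protease that can cut RAGE from the cell surface, was called higher with PMSG at 1.49 and had -0.65 without it, and its interaction was not called (limma, adjusted p = 0.17). Of the NF-kB regulators, the inhibitor gene Nfkbie was called higher with PMSG at 1.62 and without it at 1.43, whereas Nfkbia was called lower with PMSG at -1.27 and had -0.60 without it. The located probe sets of both were dimmer in untreated ESR1KO than another probe set of the same gene. The Nfkbie mean in PMSG-treated WT, 3.82, was near background. Icam1, a leukocyte adhesion gene, was called higher at 1.90 with PMSG and 1.42 without it.

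Cebpd, a C/EBP factor of the kind known to act on both calprotectin genes, was called higher in ESR1KO with PMSG at 1.94 (SE 0.26) and without it at 1.50. Its group means with PMSG were 11.09 in ESR1KO and 9.14 in WT, and without it 10.93 in ESR1KO and 9.43 in WT. Nr3c1, the glucocorticoid receptor gene, had 0.87 and 0.29 and was not called at 2-fold. The other 7 measured factors of that list, Cebpa, Cebpb, Spi1, Stat3, Hif1a, Klf5 and Atf3, were above the limit in untreated ESR1KO and were not located elsewhere. Of the genes that withhold metals from microbes, as calprotectin does, both located members were called higher in ESR1KO with and without PMSG, against 28.1% and 8.88% of all located rows. Ltf, which encodes lactoferrin, had differences of 1.66 and 1.34, and Lcn2, which encodes the siderophore-binding lipocalin 2, had 1.38 and 3.42. PMSG also raised Lcn2 in WT oviducts, by 1.90 (called), and its interaction was not called (limma, adjusted p = 0.13). The median difference over all 1891 located rows was 0.35 with PMSG and 0.14 without it.

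**Figure D4:**
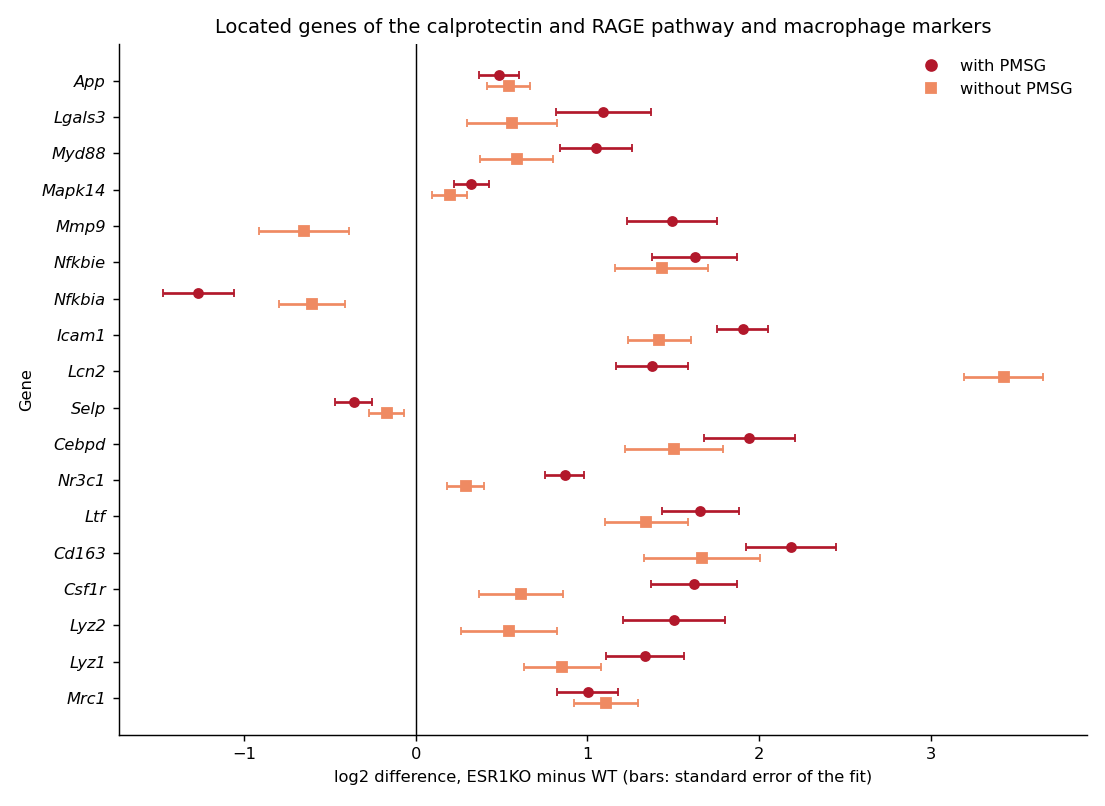
The log2 difference of ESR1KO minus WT (horizontal axis) is plotted with PMSG (circles) and without PMSG (squares) for 18 located genes of the calprotectin and RAGE pathway and of the macrophage list, with bars for the standard error of the fit. Most genes lie to the right of 0 in both, Nfkbia and Selp lie to its left, and Mmp9 changes side.

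Since neutrophils are a rich source of both calprotectin transcripts, neutrophil markers were read on the untreated ESR1KO arrays, on which S100a8 and S100a9 were above 4 throughout. Of 20 measured markers, 14 were near background, with single-array values from 1.82 to 4.15. They included the granule genes Mpo, Elane, Ctsg, Ngp and Camp and the chemokine receptor gene Cxcr2. The 6 above the limit were Ltf, Mmp8, Itgb2, Ncf1, Mmp9 and Ncf4, of which Ltf is also made by epithelium of the reproductive tract. Only Ltf and Mmp9 were located in the other arrays. Their mean signal with PMSG was 10.12 to 10.33 in ESR1KO and 8.17 to 8.88 in WT, and without it 9.59 to 9.89 in ESR1KO and 9.33 to 9.53 in WT. Without PMSG these genes went opposite ways, Ltf at 1.34 (called) and Mmp9 at -0.65 (not called). The granule genes could not be read in the PMSG-treated or WT arrays. The part of neutrophils in the differences of S100a8, S100a9 and Ager was not tested.

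Located monocyte and macrophage markers differed between genotypes in the direction of the 3 genes. Of 16 measured markers, 15 were above the limit in untreated ESR1KO, and Itgax was near background. All 5 located members were called higher in ESR1KO with PMSG, namely the scavenger receptor gene Cd163 at 2.18, the growth factor receptor gene Csf1r at 1.62, the lysozyme genes Lyz2 at 1.50 and Lyz1 at 1.33, and the mannose receptor gene Mrc1 at 1.00. The located probe set of Csf1r was dimmer in untreated ESR1KO than another of that gene. Without PMSG, Cd163 at 1.67 and Mrc1 at 1.11 were called. These genes were located because the study listed them as changed, and 28.1% of located rows were called higher with PMSG. The mean signal over the 5 genes with PMSG was 10.80 to 11.15 in ESR1KO and 8.98 to 9.66 in WT, and without it 10.05 to 10.52 in ESR1KO and 9.06 to 9.50 in WT. Over the 12 arrays, that mean correlated with S100a8, S100a9 and Ager at 0.900, 0.831 and 0.887. Within groups, the values over 12 arrays were 0.27, -0.02 and 0.11. PMSG-treated ESR1KO replicate 1, the lowest of its group for all 3 genes, was between the other 2 for this mean, at 10.94. The part of macrophages in the differences was not tested.

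**Figure D5:**
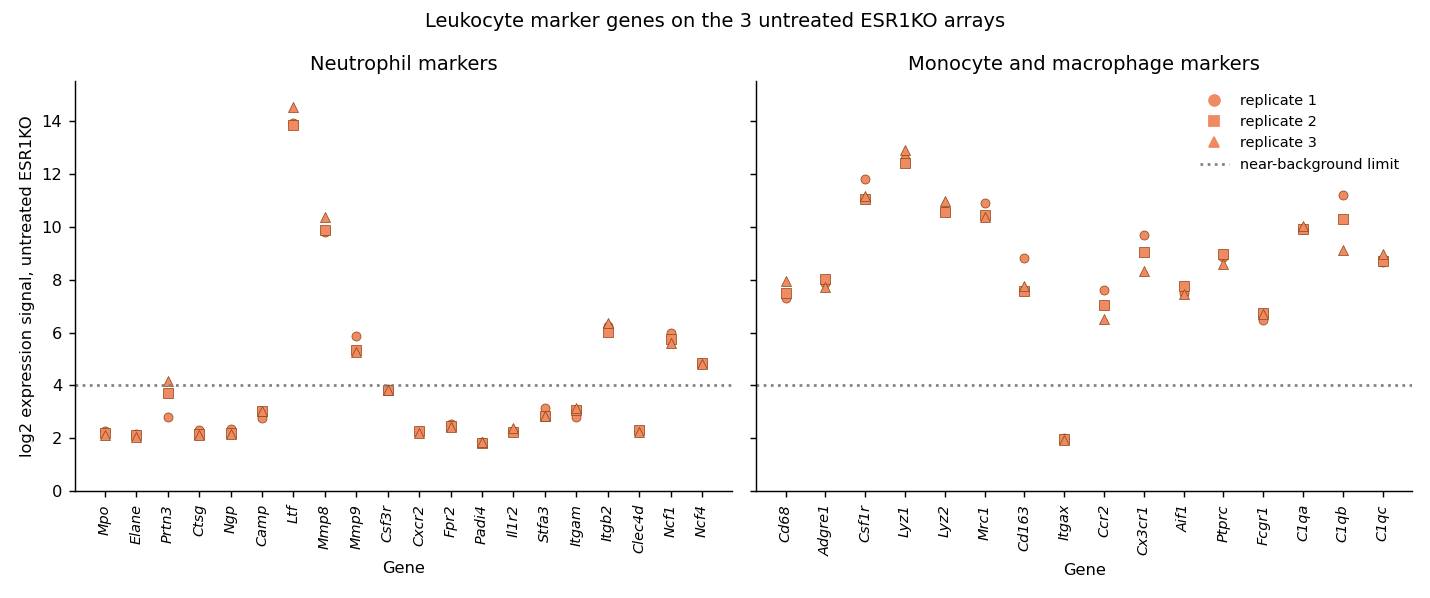
The log2 expression signal (vertical axis) of neutrophil markers (left) and of monocyte and macrophage markers (right) is plotted for each of the 3 untreated ESR1KO arrays, with a dotted line at the near-background limit of 4 against which each gene is to be read. Of the neutrophil markers, 14 of 20 have means under the line, and of the macrophage markers 1 of 16 does.

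Markers of other cells known for these transcripts were read in the same way. Of 19 markers of stratified squamous epithelium, which makes calprotectin, 15 were near background in untreated ESR1KO, including Krt14, Krt5 and Krt6a, and Krt10, Krt13, Krt15 and Sbsn were above the limit. Krt13 was called higher with PMSG at 3.34 and had 0.69 without it, and Krt15 was called higher at 2.39 and 2.34, whereas Krt10 had 0.44 and 0.22. The PMSG-treated WT mean of Krt13, 3.83, was near background. So were both WT means of Krt15, 3.02 with PMSG and 3.26 without it. Of 10 alveolar type I markers, 8 were above the limit in untreated ESR1KO, including Pdpn and Emp2, with Aqp5 and Rtkn2 near background. Of these 10, 4 were located and none was called higher. Called lower were 3 with PMSG and 2 without it, against 20.0% and 8.83% of all located rows. The water channel gene Aqp5 was called lower in ESR1KO, at -4.51 with PMSG and -2.42 without it. Its ESR1KO means, 3.48 with PMSG and 3.52 without it, were near background, so these differences are uncertain in size. Cav1 was called lower at -1.04 in both, and Hopx was called lower with PMSG at -1.28. All 3 measured red blood cell markers and all 4 measured fat cell markers were near background in untreated ESR1KO. Alas2, the 1 located red blood cell gene, was called lower with PMSG at -2.43 and had -0.67 without it. Its means with PMSG, 1.43 in ESR1KO and 3.86 in WT, were both near background. Of 9 measured ovarian follicle markers, 4 were above the limit in untreated ESR1KO, 5 were near background and none was located. Of the 3 located endothelial genes, Pecam1 was called lower in ESR1KO at -1.26 with PMSG and -3.24 without it, Emcn was called lower without PMSG at -1.57 and had -0.31 with it, and Kdr had -0.23 and -0.51. Of the 3 located stromal genes, Lum was called lower at -2.10 and -2.44, Col1a2 was called lower without PMSG at -2.34 and had -1.13 with it, and Pdgfra was called higher at 1.49 and 1.12. The located probe set of Col1a2 averaged 4.41 in untreated ESR1KO, against 14.01 for another probe set of that gene, which was not located elsewhere. The 1 located smooth muscle gene, Actg2, was called lower without PMSG at -2.26 and had -1.64 with it. The part of these cells in the differences of S100a8, S100a9 and Ager was not tested.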

How the data were processed

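RNA from 12 oviduct pools was hybridized to Affymetrix Mouse Genome arrays. The authors made the deposited log2 expression signals with Partek 6.6, by GC-RMA, quantile normalization of the arrays and summary of each probe set by median polish, and no detection calls or raw intensities were used here. The table holds 45101 rows, of which 34958 probe sets had 1 gene symbol, 932 several and 9211 none, and 0 columns lacked a sample. The number of arrays limits the precision. The untreated ESR1KO columns correlated with the other 9 at -0.15 to -0.12, since the row orders differ. Rows were located from the fold changes that the authors list for 1997 rows, used only as addresses (within 7.92e-05). The authors' own p-values were not used.

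The genotype comparison with PMSG and the PMSG comparison in WT used every row of the 9 columns, in limma 3.58.1 (R 4.3.3; eBayes, variance trend, Benjamini-Hochberg). Comparisons that need untreated ESR1KO used the 1891 rows located in all 12 arrays, took over the prior of the first fit (2.87 degrees of freedom) and were adjusted as for 45101 tests, so that their adjusted p is an upper bound. Calls needed a 2-fold difference and an adjusted p below 0.05, with no fold minimum for the interaction. The fits were tested on simulated data. The methods' two-way model without moderation, other settings and each array left out in turn were alternatives.

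The genes S100a8, S100a9 and Ager and the gene lists were chosen with earlier results of these data known. Genes are named as members of these lists, up to 4 located per list by size of the difference with PMSG, as the 5 most like each of the 3 genes, as neighbours in the order of differences, or, in untreated ESR1KO alone, as examples of the highest and lowest signals. Further list members are named where a count was spelled out, after their values were seen. For a gene with several probe sets, the brightest in untreated ESR1KO was read there. Motifs were counted in RefSeq promoters of GRCm38.p6.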

Additional observations from a re-analysis of the deposited data

How the results depend on the processing

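The genotype differences of S100a8, S100a9 and Ager kept their direction under every alternative run. Leaving out 1 array could not have reversed them, since all ESR1KO arrays lay above all WT arrays for these genes. The variance settings, the replicate block and the fits of 6 arrays leave a difference of means as it was. Only the size of the differences is described here. With each array left out in turn, the difference with PMSG ranged from 3.84 to 5.15 for S100a8, 3.51 to 5.30 for S100a9 (5.30 without PMSG-treated ESR1KO replicate 1) and 4.18 to 4.89 for Ager, and without PMSG from 3.14 to 4.07, 2.33 to 2.91 and 3.97 to 4.49. The PMSG differences, none called under any alternative, ranged in WT from -0.062 to 0.79, -0.58 to -0.10 and -0.27 to 0.14, so that S100a8 and Ager changed sign, and in ESR1KO from 0.56 to 1.87, 0.54 to 2.32 and -0.078 to 0.64, so that Ager did. The interaction ranged from 0.27 to 1.58, 0.91 to 2.70 and 0.01 to 0.73. Counts of called rows moved more. Those between genotypes with PMSG and between PMSG-treated WT and WT come from all 45101 rows. The other counts come from the 1891 located rows only, so they cannot be set against the former. A mean signal of at least 4 used fewer rows. With PMSG 2022 rows were called between genotypes, 3065 with no fold minimum, 1255 with the unmoderated model, 1313 with only the 6 arrays compared, and 1248 to 2422 with an array left out. Without PMSG 335 were called, 110 unmoderated, 124 with 6 arrays and 84 to 464 with an array left out. PMSG-treated WT versus WT gave 113, 19 unmoderated, 179 at a mean signal of at least 4, 36 with 6 arrays and 41 to 346 with an array left out. PMSG-treated ESR1KO versus ESR1KO gave 2, and 0 with no variance trend, unmoderated, at a mean of at least 4 or with 6 arrays, and 0 to 6 with an array left out. The interaction gave 7, 13 with no variance trend, 1 unmoderated and 1 to 32 with an array left out. The cause was not tested.

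The labels do not say that a replicate number marks a shared animal or day. Deviations of same-numbered arrays correlated at 0.12 to 0.31 between WT and PMSG-treated ESR1KO and at 0.16 to 0.36 for replicate 1, but at -0.12 to 0.08 in 4 of the 9 pairs that share a row order, so the number was not taken as a pairing. With that number as a block, the counts were 1926, 281, 46, 2 and 4 in the same order of comparisons. The differences of the 3 genes could not move, since each group holds each replicate number once, so they say nothing on pairing. With the block, none of the PMSG differences or interactions of these genes was called.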
